A study of Rattus norvegicus with 12 samples.

Results

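The comparison described here sets rat heart cell cultures exposed to 50 µg/ml of DEHP against cultures exposed to 10 µg/ml. It rests on 6 of the 12 arrays of the study, 3 per dose, chosen by the dose in their titles. The difference uses no vehicle culture, but the vehicle and 1 µg/ml arrays help to estimate the spread; with only the 2 doses in the fit 1312 genes pass in place of 2091. DEHP is di(2-ethylhexyl) phthalate, an ester that softens polyvinyl chloride and leaches from medical tubing and blood bags. The study measured gene expression on Affymetrix arrays in cultures given vehicle or 1, 10 or 50 µg/ml of DEHP, and the comparison asks which transcripts differ between the upper 2 doses.

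Every culture came from hearts of 2-day-old Sprague-Dawley pups of a single litter, dissociated with enzymes and plated on coated coverslips. The cells grew for 3 days before treatment and were then exposed for 3 days. DEHP was carried in 0.1% DMSO, which the vehicle cultures also received, so DMSO is common to all 4 groups. RNA was extracted from whole monolayers, and 5 µg of total RNA went into each labelling. Cells isolated this way are mostly cardiomyocytes together with fibroblasts, endothelial cells, smooth muscle cells and resident macrophages. The 3 arrays of a dose are separate cultures of that litter, and a p-value here reflects culture-to-culture spread, with no information on other litters.

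DEHP enters cells as the diester and is split by lipases to a monoester, which is known as an activator of the peroxisome proliferator activated receptors, a family of lipid-sensing nuclear receptors. In the liver these receptors switch on genes of fatty acid oxidation. A heart monolayer holds muscle cells and the supporting cells between them, and RNA from the whole monolayer mixes them.

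The deposited values are ratios with no level: in each probe set the middle of the 12 arrays sits at 1. They are given here as log2 ratios, so 0 is the middle of the 12 arrays, and a difference is the mean log2 ratio at 50 µg/ml minus that at 10 µg/ml. The ratio is read as the array over the middle; no level can be compared between genes, and the cell type named in the labels could not be checked from marker levels. The 10 µg/ml culture of replicate 2 stood apart by its spread over genes. Its log2 ratios had an SD over genes of 0.177, against 0.0916 and 0.0845 in replicates 1 and 3 of the same dose and 0.187 to 0.216 in the 50 µg/ml cultures. By correlation over all genes replicate 3 was lowest: Pearson's r was 0.33 between replicates 1 and 2, 0.19 between 1 and 3 and -0.08 between 2 and 3. The mean correlation with the own group was 0.26, 0.12 and 0.056 for replicates 1, 2 and 3 at 10 µg/ml. It was 0.30 to 0.33 in vehicle, 0.57 to 0.60 at 1 µg/ml and 0.75 to 0.79 at 50 µg/ml. The ratios are centred on the 12 arrays, so such an r also depends on how far a group lies from the middle. These correlations are across genes, which are not independent replicates. Results are therefore given with all 6 arrays and again without 10 µg/ml replicate 2.

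Of 14324 genes with a named probe set, 2091 (14.6%) differed between 50 and 10 µg/ml at an adjusted p under 0.05 (limma, Benjamini-Hochberg over all genes). At the higher dose 1110 genes (7.75%) were higher and 981 (6.85%) lower. Most of these differences were small: 1797 of the 2091 were under 1.5-fold, while 31 genes (0.216%) were at least 2-fold higher and 50 (0.349%) at least 2-fold lower. The median difference over all genes was 0.0197 on the log2 scale and the median standard error 0.065. In 3750 genes (26.2%) the 3 arrays of one dose lay wholly above or below those of the other, in 2202 (15.4%) with 50 µg/ml above and in 1548 (10.8%) with it below. Without 10 µg/ml replicate 2 the count was 2531 genes (17.7%), of which 1303 (9.1%) were higher and 1228 (8.57%) lower, and 1821 genes passed in the same direction in both fits. An exact permutation test of 3 against 3 cannot give a p below 0.1, so single genes rest on the fit across all genes. For every gene list below, the shares of 7.75% higher and 6.85% lower over all genes are the background.

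**Figure D1:**
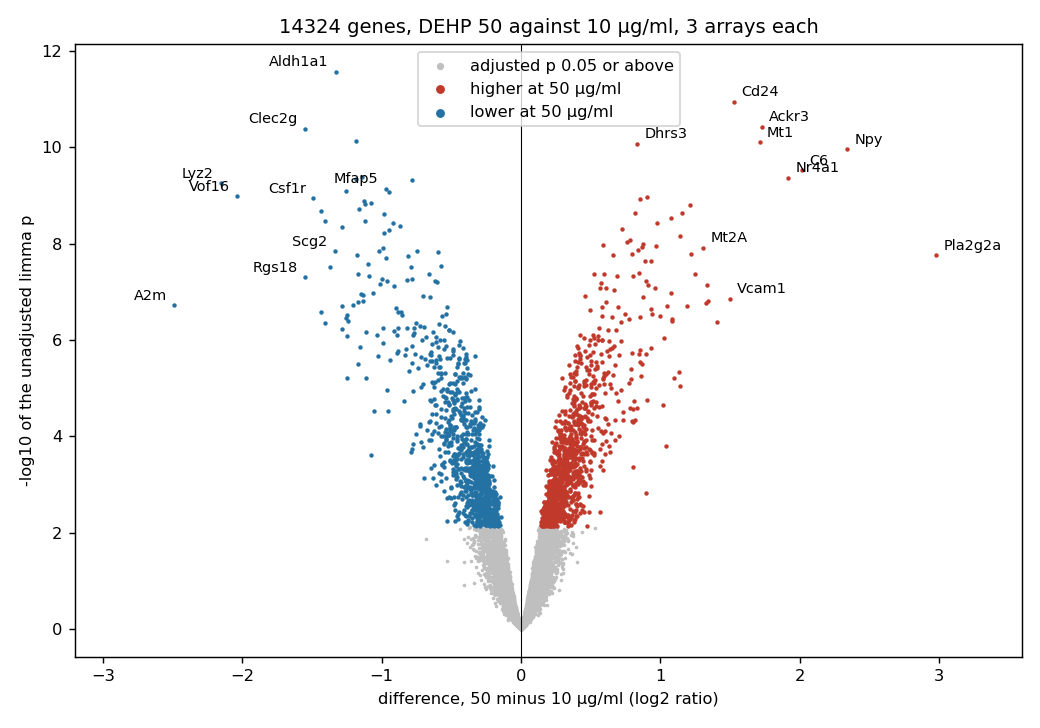
Each point is 1 of 14324 genes, placed by its difference between 50 and 10 µg/ml (log2, horizontal) and the -log10 of its unadjusted limma p (vertical), with 3 arrays per dose. Red points (1110 genes) were higher and blue points (981 genes) lower at 50 µg/ml at an adjusted p under 0.05, and Pla2g2a (2.98) and A2m (-2.49) lie farthest out on either side.

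The 3 largest rises were in genes of secreted proteins. Pla2g2a, a secreted phospholipase A2 that is induced in inflammation, read 0.04, 0.23 and -0.19 on the log2 scale in the 3 cultures at 10 µg/ml and 2.77, 2.66 and 3.604 at 50 µg/ml. That is a difference of 2.98 ± 0.24, or 7.9-fold, with an adjusted p of 4.22e-06 in limma. Each ± here and below is limma's SE, from a variance pooled over all 4 groups and drawn toward a value shared by all genes. It can understate the spread of a gene that varied more in the upper-dose cultures. Pla2g2a is such a gene, with an SD of 0.518 for the higher dose against 0.214 for the lower (3 cultures each). The 3 cultures at the lower dose sat near the middle of the study, and those at the higher dose were far above it. With a prior variance that follows the mean ratio the adjusted p of Pla2g2a was 0.254, the 1 setting in which its call was lost. Npy, which encodes the transmitter neuropeptide Y, read -0.01, -0.02 and 0.13 at the lower dose and 2.55, 2.42 and 2.17 at the higher (difference 2.34 ± 0.12, 5.07-fold). C6, a component of the membrane attack complex of complement, read 0.06, -0.04 and 0.02 against 2.01, 1.75 and 2.33 (difference 2.02 ± 0.11, 4.05-fold). The cultures of a dose thus lay within about a log2 unit of each other in all 3 genes, and the doses did not overlap.

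Nr4a1, an orphan nuclear receptor of the immediate early class, read -0.47, -0.11 and -0.57 at 10 µg/ml and 1.59, 1.51 and 1.503 at 50 µg/ml, a difference of 1.92 ± 0.11. Ackr3, a scavenging receptor for the chemokine CXCL12, read -0.15, -0.26 and -0.30 against 1.65, 1.41 and 1.42 (1.73 ± 0.08). Cd24, a small surface glycoprotein, read -0.16, -0.21 and -0.07 against 1.47, 1.29 and 1.36 (1.53 ± 0.07). For each of these genes the lower dose was at or under the middle of the study in all 3 cultures. Vcam1, the adhesion molecule to which leukocytes bind on activated endothelium, differed by 1.498 ± 0.14, and the neutrophil chemokine Cxcl1 by 1.41 ± 0.15. Lcn2, an iron-siderophore binding protein of the acute phase, differed by 1.34 ± 0.13 and Capn6, a calpain without protease activity, by 1.33 ± 0.12. Egr1, a zinc finger transcription factor, differed by 1.33 ± 0.13 and Gfpt2, an enzyme of hexosamine synthesis, by 1.25 ± 0.11. Mt1 and Mt2A complete the 14 largest rises and are described with their promoters.

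The largest falls included the protease inhibitor A2m and several macrophage genes. A2m, a broad inhibitor of proteases, read 0.48, -0.06 and 0.22 at 10 µg/ml and -2.01, -2.60 and -2.22 at 50 µg/ml, a difference of -2.49 ± 0.24 (adjusted p 2.49e-05 in limma). Lyz2, the macrophage lysozyme, read -0.28, -0.03 and 0.28 against -2.01, -2.13 and -2.36 (difference -2.15 ± 0.13). Vof16 read 1.31, 0.90 and 1.25 against -0.78, -1.03 and -0.82 (-2.04 ± 0.13). In Vof16 the 10 µg/ml cultures were well above the middle of the study, whereas in A2m and Lyz2 they were close to it.

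Clec2g, a C-type lectin, read 0.51, 0.43 and 0.48 at 10 µg/ml and -1.003, -1.22 and -0.995 at 50 µg/ml (-1.55 ± 0.07). Rrad, a small GTPase that inhibits L-type calcium channels, read -0.05, 0.25 and 0.21 against -1.30, -1.54 and -1.06 (-1.44 ± 0.14). Aldh1a1, which oxidises retinaldehyde to retinoic acid, read -0.20, -0.07 and -0.06 against -1.50, -1.42 and -1.40. Its difference of -1.33 ± 0.05 had the smallest adjusted p of the 28 largest changes, 3.91e-08 in limma. Scg2, a granin of secretory vesicles, differed by -1.33 ± 0.10. Ch25h, which makes 25-hydroxycholesterol, differed by -1.41 ± 0.10 and Abca1, the exporter of cellular cholesterol, by -1.29 ± 0.09. The leukocyte genes Rgs18 (-1.55), Csf1r (-1.49), Ptprc (-1.44), C1qa (-1.40) and Lilrb4 (-1.37) make up the rest of the 14.

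All 28 of these genes kept their call without 10 µg/ml replicate 2, with differences of 1.15 to 3.09 for the rises and -2.63 to -1.27 for the falls. The 28 were chosen for size among genes whose doses do not overlap, so their separation is part of the choice. A further quantile normalization, which gives every array the same spread, cut 17 of the 28 by more than 1.5 times and left differences of 0.77 to 1.69 and of -2.04 to -0.68, for example 1.33 for Npy, 1.25 for C6, -1.46 for A2m and -1.20 for Lyz2.

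**Figure D2:**
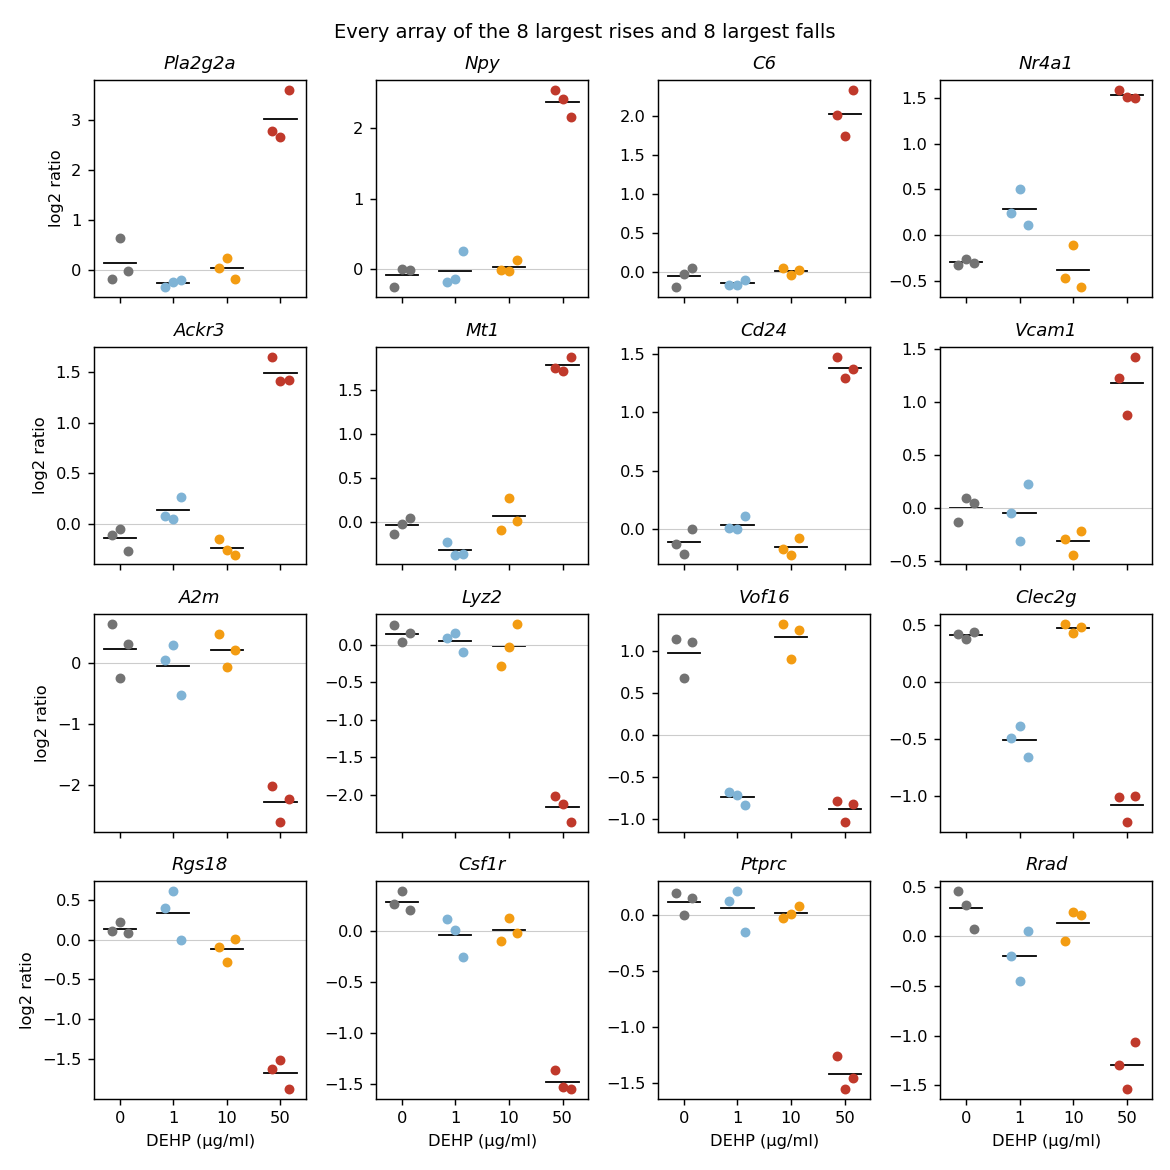
Each panel shows 1 gene, with the log2 ratio of every array (points) and the group mean (line) by dose of DEHP, 0 being vehicle. The top 8 panels hold the largest rises and the bottom 8 the largest falls between 10 and 50 µg/ml; in Nr4a1 the 3 arrays at 50 µg/ml lie between 1.503 and 1.59, and in Vof16 and Clec2g the arrays at 1 µg/ml also lie below those at 10 µg/ml.

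Metallothioneins are small cysteine-rich proteins that bind zinc and copper, and their genes are switched on by the zinc-sensing factor MTF1 through short metal response elements near the start site. The 250 bases before the start of Mt1 (chr19:10832976-10833225, minus strand) and Mt2A (chr19:10838709-10838958, minus strand) are shown 5′ to 3′ because both genes are among the 14 largest rises and lie side by side. The sequences are RefSeq's on the GRCr8 assembly. Capitals mark each match to TGCACNC or TGCGCNC, a core of the metal response element, on either strand.
Mt1: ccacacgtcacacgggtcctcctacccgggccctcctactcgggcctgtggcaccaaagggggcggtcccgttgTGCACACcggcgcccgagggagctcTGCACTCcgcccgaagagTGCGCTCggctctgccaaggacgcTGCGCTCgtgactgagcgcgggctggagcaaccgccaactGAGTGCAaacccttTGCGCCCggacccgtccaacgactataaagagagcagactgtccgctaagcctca
Mt2A: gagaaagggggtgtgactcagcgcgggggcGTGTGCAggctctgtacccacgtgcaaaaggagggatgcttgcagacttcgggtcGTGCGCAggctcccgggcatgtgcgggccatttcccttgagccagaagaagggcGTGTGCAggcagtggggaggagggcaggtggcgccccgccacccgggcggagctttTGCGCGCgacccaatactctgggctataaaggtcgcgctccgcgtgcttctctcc

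The Mt1 window holds 6 matches, whose first bases are at -176, -151, -133, -109, -69 and -55 from the start, and the Mt2A window holds 4, at -220, -165, -111 and -55. Of 33469 rat promoter windows of this length, 20.6% hold at least 1 match. A match is a description of the letters and not a measured binding site. Mt1 read -0.09, 0.28 and 0.02 at 10 µg/ml and 1.75, 1.72 and 1.88 at 50 µg/ml, a difference of 1.71 ± 0.09 (limma adjusted p 1.73e-07). Mt2A read 0.00, 0.29 and 0.11 against 1.44, 1.30 and 1.57 (1.31 ± 0.10, limma adjusted p 3.54e-06). Both genes were high in every culture at the upper dose, and in both the highest of the 10 µg/ml cultures was replicate 2; without it the differences were 1.82 and 1.38. A further quantile normalization gave 1.08 and 0.77.

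Of the 14 measured metallothionein and zinc transport genes, 4 rose and none fell, with a median of 0.163. The other risers were the importer Slc39a10 (0.39 ± 0.08) and the zinc exporter Slc30a1 (0.27), itself a known target of MTF1. Against 1 µg/ml, the 10 µg/ml cultures were also higher in Mt1 (0.39, limma adjusted p 0.0135) and Mt2A (0.67, limma adjusted p 0.00253), while against vehicle their differences of 0.10 and 0.27 did not pass.

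Macrophage markers were the list with the greatest share of changed genes. Of 30 measured macrophage and myeloid markers, 26 fell and none rose at 50 µg/ml, against 6.85% of all genes lower, and 13 of them fell at least 2-fold. The median member differed by -0.845, against 0.0197 over all genes. The falls ran through the receptors that define the lineage: Csf1r, the receptor for the macrophage growth factor M-CSF, read -0.09, 0.14 and -0.01 at 10 µg/ml and -1.36, -1.53 and -1.55 at 50 µg/ml. Ptprc, the pan-leukocyte phosphatase CD45, read -0.04, 0.00 and 0.08 against -1.25, -1.55 and -1.46. The lysosomal glycoprotein Cd68 differed by -1.13, the mannose receptor Mrc1 by -1.26, the Fc receptor gamma chain Fcer1g by -1.28 and the actin bundler Lcp1 by -1.12. The complement C1q chains C1qa, C1qb and C1qc differed by -1.40, -0.78 and -1.07.

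The list's median by array was -0.04, 0.19 and 0.03 at 10 µg/ml and -0.879, -0.788 and -0.788 at 50 µg/ml, so every culture at the upper dose was below every culture at the lower. Without 10 µg/ml replicate 2, which had the highest of the 3 lower-dose medians, 25 members fell and the median was -0.748; the gene lost was Adgre1 (-0.53, then -0.46 with a limma adjusted p of 0.096). A further quantile normalization left 20 members lower and a median of -0.514. The 4 members that did not pass were the platelet and macrophage chemokine Pf4 (-0.32), the invariant chain Cd74 (-0.20), and the scavenger receptors Marco (0.05) and Cd163 (0.09). In RNA from whole monolayers, fewer cells of a type and less RNA per cell cannot be told apart. Of 10 lymphocyte markers 1 fell, Cd4 (-1.24 ± 0.13), which rat macrophages also carry, and the other 9 did not pass. The vehicle arrays had macrophage medians of 0.158 to 0.207, and the median member differed by -0.156 between 10 µg/ml and vehicle, a comparison that shares the 10 µg/ml arrays and in which no gene passed.

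Of 16 measured RGS genes, which shorten G protein signals, 6 fell and none rose (median -0.149), against 6.85% of all genes lower. They were Rgs18 (-1.55 ± 0.13) and Rgs1 (-1.17 ± 0.15), which are abundant in blood cells, with Rgs4 (-0.81), the pericyte gene Rgs5 (-0.75), Rgs16 (-0.37) and Rgs11 (-0.26). Rgs5 was close to 0 in the 3 lower-dose cultures (0.01, -0.05 and 0.05) and read -0.74, -0.75 and -0.75 at 50 µg/ml. Macrophage markers fell in the same cultures, and their part in Rgs18 and Rgs1 was not tested.

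**Figure D3:**
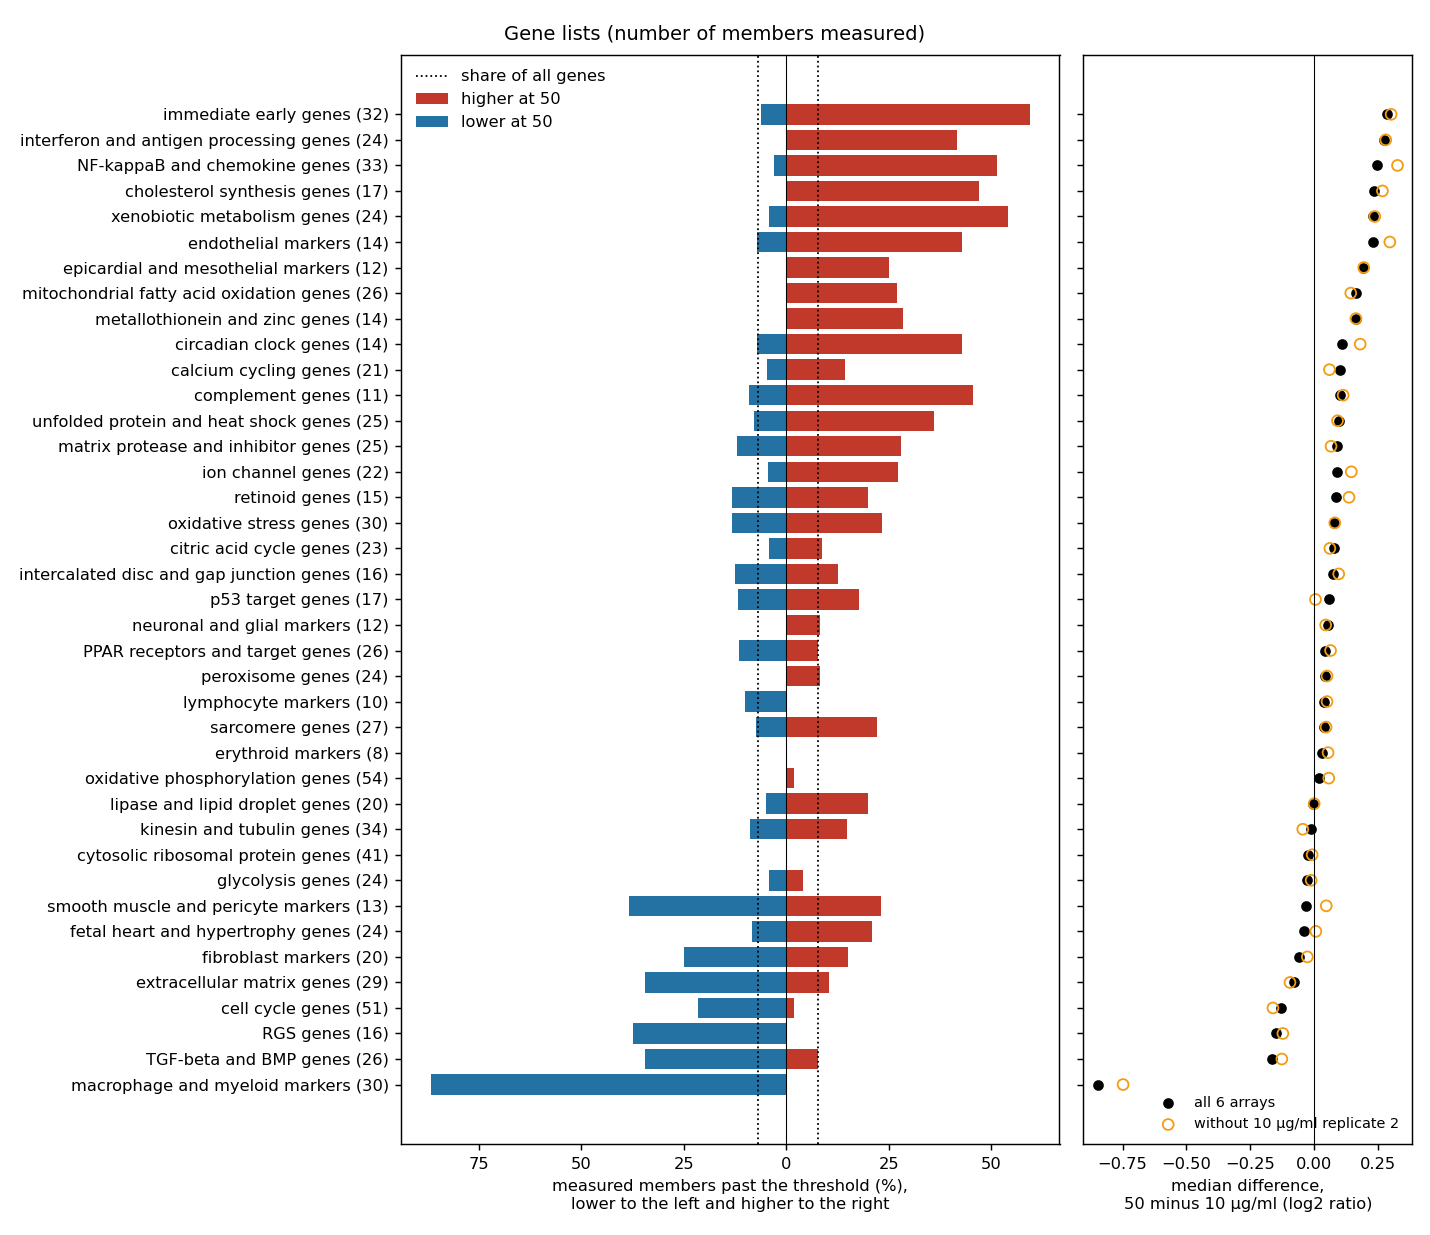
For 39 gene lists, the bars on the left give the percentage of measured members past the threshold at 50 against 10 µg/ml, lower to the left and higher to the right, with dotted lines at the shares of all genes (6.85% and 7.75%). The points on the right give the median log2 difference with all 6 arrays (filled) and without 10 µg/ml replicate 2 (open); with all 6 arrays macrophage and myeloid markers stand lowest at -0.845 and immediate early genes highest at 0.284, and without that array NF-kappaB and chemokine genes are highest at 0.327.

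Immediate early genes, which respond to growth factors and stress within minutes without new protein synthesis, were mostly higher at the upper dose. Of 32 measured, 19 rose and 2 fell, against 7.75% of all genes higher, with a median of 0.284. The nuclear receptors Nr4a1 (1.92) and Nr4a3 (1.14 ± 0.08), the zinc finger factors Egr1 (1.33), Egr3 (0.87) and Egr2 (0.82), the AP-1 component Fos (1.14 ± 0.15) and the polo-like kinase Plk2 (0.96 ± 0.09) changed most. Fos read -0.45, -0.50 and -0.54 at 10 µg/ml and 1.03, 0.44 and 0.44 at 50 µg/ml. Egr1 read -0.46, -0.28 and -0.80 against 0.89, 0.76 and 0.80, and Plk2 read -0.29, -0.65 and -0.50 against 0.66, 0.36 and 0.42. All 3 genes were under the middle of the study in every 10 µg/ml culture and above it in every 50 µg/ml culture.

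Smaller rises were found in the phosphatases Dusp1 (0.39) and Dusp5 (0.40), in Klf4 (0.53), Myc (0.43) and Jun (0.33), while Dusp6 (-0.37), which switches off ERK, and the matricellular gene Ccn2 (-0.41) fell. The list medians by array were -0.076, -0.022 and -0.152 at the lower dose and 0.263, 0.153 and 0.165 at the higher. Without 10 µg/ml replicate 2 the counts were 22 higher and 2 lower and the median 0.302, with Atf3 (0.26, then 0.36) and 2 others gaining their call. In the 250 bases before the start, RefSeq's Plk2 window on GRCr8 holds 1 match to the cyclic AMP response element TGACGTCA, at -66, which 1.59% of windows hold. The Nr4a1 window holds no match to that motif, to the AP-1 site TGACTCA or TGAGTCA (4.05% of windows) or to the CArG pattern of the serum response element (1.5%). Only these exact letters were searched, and near variants, such as the TGCGTCA found in the Nr4a1 window, were not counted. The metal response core printed in capitals for the metallothioneins is also found in both, once in Nr4a1 at -220 and in Plk2 at -103 and -102, which overlap.

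Of 14 circadian clock genes measured, 6 rose and 1 fell, where all genes gave 7.75% higher and 6.85% lower. The list median was 0.111 (0.181 without 10 µg/ml replicate 2). Per1 read -0.04, -0.01 and -0.12 at 10 µg/ml and 0.40, 0.54 and 0.64 at 50 µg/ml (0.58 ± 0.06), and the repressors Nr1d1 and Per2 differed by 0.54 and 0.50. Clock itself differed by -0.07 and did not pass. The 1 fall, that of the repressor Bhlhe41 (-0.25), lost its call when any of 9 single arrays was left out.

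Targets of NF-kappaB and chemokine genes were more often higher at 50 µg/ml, while macrophage markers were lower. Of 33 measured, 17 rose and 1 fell, with a median of 0.245, or 19 and 1 with a median of 0.327 without 10 µg/ml replicate 2. Beside Pla2g2a, Ackr3, Vcam1, Cxcl1 and Lcn2, the risers included the prostaglandin synthase Ptgs2 (0.94), the monocyte chemokines Ccl2 (0.88) and Ccl7 (0.61), the adhesion molecule Icam1 (0.66) and the inhibitor Nfkbia (0.82), a feedback target of the pathway. Nfkbia read -0.22, -0.12 and -0.32 at 10 µg/ml and 0.64, 0.52 and 0.64 at 50 µg/ml (0.82 ± 0.05, limma adjusted p 1.15e-06). Ccl2 read -0.19, -0.16 and -0.08 against 0.70, 0.68 and 0.83. In both genes the spread within a dose was a small part of the gap between doses, which their choice by smallest p in the list favours. Socs3, the inhibitor of cytokine signalling through STAT3, was the 1 that fell (-0.59). The cytokines Il6 (0.04) and Tnf (-0.13) and the subunits Nfkb1 (0.04) and Rela (0.16) did not pass.

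Interferon-induced and antigen processing genes showed a similar direction with more spread between cultures. Of 24 measured, 10 rose and none fell (median 0.274). The antiviral GTPase Mx2 read -0.17, -0.10 and 0.02 at 10 µg/ml and 1.07, 0.57 and 1.23 at 50 µg/ml (1.04 ± 0.20), and Oasl read -0.11, 0.29 and 0.12 against 1.22, 0.71 and 1.45 (1.02 ± 0.16). Replicate 2 was the lowest of the 50 µg/ml cultures in both, as it was in the list median (0.03, against 0.26 and 0.28). The light chain of class I molecules, B2m, differed by 0.24 and the ubiquitin-like Isg15 by 0.53 with a limma adjusted p of 0.0535. The count was 6 without 10 µg/ml replicate 1 and 14 at most when another single array was left out.

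In the complement list, 5 of 11 members rose and 1 fell (median 0.0999), where all genes gave 7.75% higher and 6.85% lower. The rising genes were C6 with C7 (0.39), its neighbour in the attack complex, the proteases C1r (0.31 ± 0.05) and C1s (0.44) and the regulator Cd55 (0.23, which lost its call without 10 µg/ml replicate 2). The anaphylatoxin receptor C3ar1, carried by macrophages, fell by 1.25 on the log2 scale. The C1q chains, counted with the macrophage markers, fell while the C1r and C1s proteases that join them in the C1 complex rose.

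In the list of genes that handle foreign compounds, which also holds some sterol cytochromes, more members were higher than lower. Of 24 measured, 13 rose and 1 fell, with a median of 0.232 (0.238 without 10 µg/ml replicate 2). The microsomal glutathione transferase Mgst1 read -0.27, -0.10 and 0.01 at 10 µg/ml and 0.89, 0.64 and 0.86 at 50 µg/ml (0.92 ± 0.08). The efflux pumps Abcb1b (0.83), Abcb1a (0.38) and Abcg2 (0.31), the cytochrome Cyp4b1 (0.52) and the epoxide hydrolases Ephx1 (0.42) and Ephx2 (0.23) also rose. So did Cyp7b1 (0.79 ± 0.10) and Cyp27a1 (0.43), cytochromes that act on sterols. The dioxin receptor Ahr fell (-0.42), a call lost without 10 µg/ml replicate 1 or 3 or 50 µg/ml replicate 2 or 3, and its target Cyp1a1 (0.12) did not pass.

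Among 30 oxidative stress genes 7 rose and 4 fell (median 0.0799), where all genes gave 7.75% higher and 6.85% lower. Haem oxygenase Hmox1 read -0.04, 0.06 and 0.05 against 0.53, 0.44 and 0.58 (0.49 ± 0.06), and sulfiredoxin Srxn1 (0.46 ± 0.04) and the cystine importer Slc7a11 (0.47) rose with it. All 3 of these are known targets of NRF2, as are Nqo1 (0.22), Gclc (0.34) and Gclm (0.08), which did not pass. Txnip, which inhibits thioredoxin and glucose uptake, read 0.10, -0.02 and 0.06 at 10 µg/ml and -1.16, -1.09 and -1.03 at 50 µg/ml (-1.14 ± 0.07). The extracellular dismutase Sod3 (-0.55) and the peroxidase Gpx1 (-0.37) were among the falls. The count of risers was 4 without 10 µg/ml replicate 1 and 4 without 50 µg/ml replicate 3.

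Of 25 genes of the unfolded protein response and heat shock, 9 rose and 2 fell (median 0.097). Over all genes 7.75% were higher and 6.85% lower. The chaperone Hspa5 (0.27), the transcription factor Xbp1 (0.40), the phosphatase subunit Ppp1r15a (0.52 ± 0.07) and the cochaperone Bag3 (0.39 ± 0.05) rose, whereas Ddit3 (-0.69 ± 0.07) and Chac1 (-0.70) fell. Chac1 read 0.20, 0.75 and 0.11 at 10 µg/ml, highest in replicate 2, and its difference without that culture was -0.50.

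Among the lipid lists, cholesterol synthesis had the largest share of changed members. Of 17 measured genes, 8 rose and none fell, with a median of 0.234 (9, none and 0.268 without 10 µg/ml replicate 2). Insig1, the sterol-responsive brake on the pathway, read -0.20, -0.39 and 0.01 at 10 µg/ml and 0.63, 0.53 and 0.60 at 50 µg/ml (0.78 ± 0.11). Its 2 probe sets gave 0.685 and 0.866. The sterol reductase Tm7sf2 (0.61 ± 0.08), squalene epoxidase Sqle (0.50 ± 0.07), the isomerase Idi1 (0.46), Hsd17b7 (0.45), Dhcr7 (0.42) and Cyp51 (0.35) rose as well. The cholesterol exporter Abca1 and the oxysterol enzyme Ch25h, by contrast, were among the 14 largest falls.

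Mitochondrial fatty acid oxidation genes gave 7 rises and no fall among 26 (median 0.164), for instance the acyl-CoA synthetase Acsl1 (0.44 ± 0.09), carnitine acetyltransferase Crat (0.36 ± 0.06), Hadha (0.28) and the carnitine palmitoyltransferase Cpt1a (0.21). These differences were small, and the count fell to 3 without 10 µg/ml replicate 1, to 4 without 50 µg/ml replicate 1 and to 1 after a further quantile normalization. The muscle form Cpt1b (0.23 ± 0.11) did not pass. Among 24 peroxisome genes 2 rose by small amounts, a share near the 7.75% of all genes, namely Scp2 (0.19) and Abcd2 (0.16), and neither passed without 50 µg/ml replicate 1 or replicate 3.

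The peroxisome proliferator activated receptors themselves differed little: Ppara by 0.06 ± 0.10, Ppard by 0.12 ± 0.05 and Pparg by 0.03 ± 0.08, none of which passed. Of 26 receptors and target genes 2 rose and 3 fell (median 0.0437), where all genes gave 7.75% higher and 6.85% lower. Lipoprotein lipase Lpl rose (0.60 ± 0.10) while the fatty acid binding protein Fabp4 fell (-0.48 ± 0.08), the receptor Vldlr fell (-0.30) and the pyruvate dehydrogenase kinase Pdk4 fell (-0.40 ± 0.12, limma adjusted p 0.0432, and 0.051 without 10 µg/ml replicate 2). The induced target Angptl4 read -0.09, 0.00 and -0.03 against 0.12, 0.33 and 0.12 and did not pass (0.23 ± 0.09). The risers were down to 1 without 10 µg/ml replicate 1, 50 µg/ml replicate 1 or 50 µg/ml replicate 3.

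Lipid storage genes went both ways. The shares of all genes to set beside this list and those after it were 7.75% higher and 6.85% lower. With all arrays, glycolysis and oxidative phosphorylation were under these shares in both directions, and the citric acid cycle list was near them. Dgat2, which makes triglyceride, read -0.20, 0.02 and -0.06 at 10 µg/ml and 0.66, 0.46 and 0.60 at 50 µg/ml (0.65 ± 0.08), and the endothelial lipase Lipg rose by 0.54 ± 0.07. The lipolysis inhibitor G0s2 fell (-0.76 ± 0.09). In the list of 20, 4 rose and 1 fell (2 without 10 µg/ml replicate 2). Glycolysis genes gave 1 rise, the lactate carrier Slc16a1 (0.57 ± 0.10), and 1 fall, Pfkfb3 (-0.82 ± 0.10), among 24, with 2 rises without 10 µg/ml replicate 2. The citric acid cycle list of 23 gave 2 rises, Suclg2 (0.41) and Mdh2 (0.21), and the 1 fall of Pdk4; the rises were down to 1 without replicate 1 or 3 of either dose. Among 54 oxidative phosphorylation genes 1 rose, the complex I subunit Ndufb8 (0.16 ± 0.05), and none fell. Its call was lost in 12 of 20 settings, the replicate block among them. The rises numbered 3 without 10 µg/ml replicate 2, 2 without 50 µg/ml replicate 1 and 9 with array weights, and 2 genes fell without 10 µg/ml replicate 3. None of 41 cytosolic ribosomal protein genes passed, with a median of -0.0246, and with any single array left out at most 1 passed in either direction; Rpl3 (-0.19) and Rpl11 (0.19) had the lowest p.

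**Figure D4:**
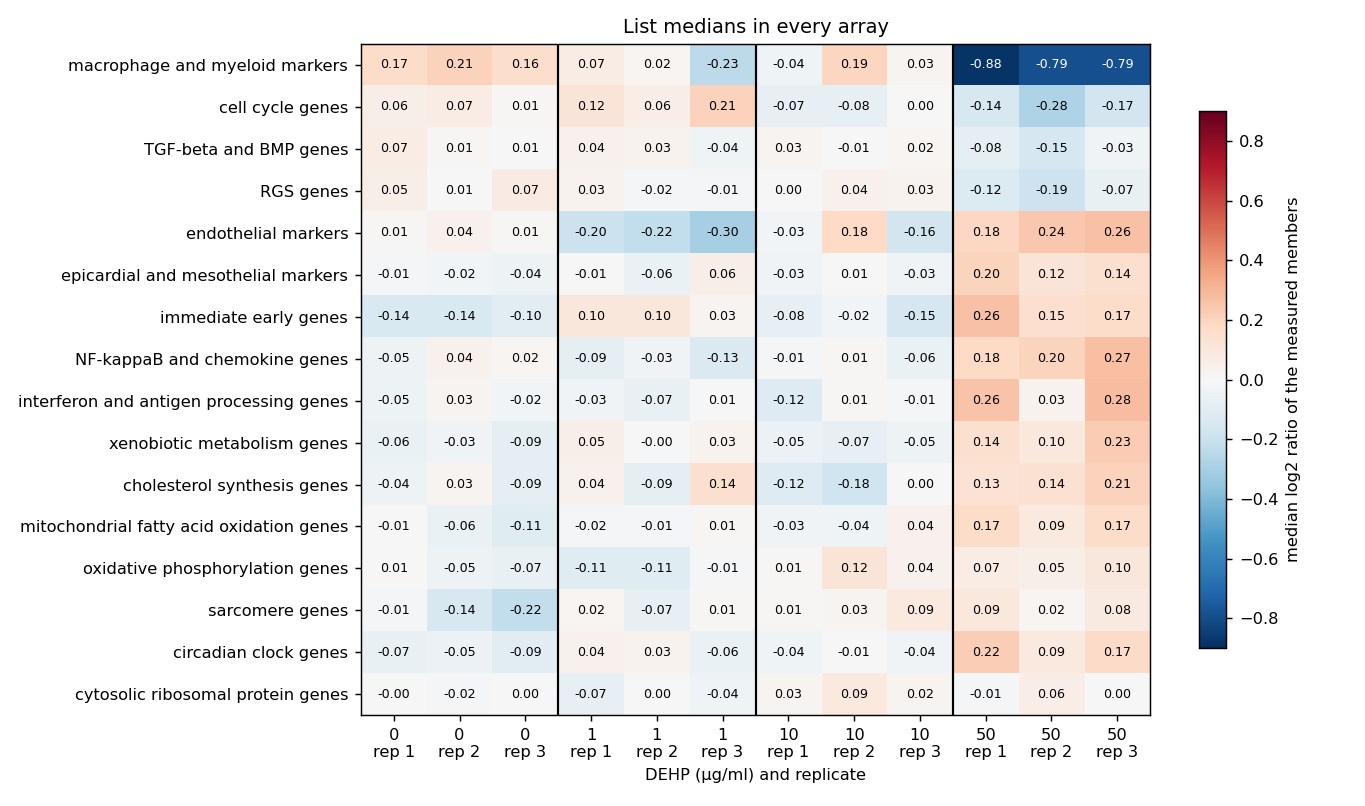
Each cell is the median log2 ratio of a list's measured members in 1 array, with arrays in columns by dose (0 is vehicle) and replicate, and 16 lists in rows. Macrophage and myeloid markers lie between -0.879 and -0.788 in the 50 µg/ml arrays, and the immediate early list lies between 0.153 and 0.263 there and below 0 in every 10 µg/ml array.

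Extracellular matrix and TGF-beta genes were more often lower at the upper dose. In the matrix list of 29, 10 fell and 3 rose (median -0.0787), and in the TGF-beta and BMP list of 26, 9 fell and 2 rose (median -0.163). Ltbp2, a latent TGF-beta binding protein family member of elastic fibres, read 0.15, 0.28 and 0.04 at 10 µg/ml and -1.13, -1.16 and -1.02 at 50 µg/ml (-1.26 ± 0.08, limma adjusted p 7.23e-07). Ltbp1 (-0.53) and Ltbp4 (-0.54), which tether latent TGF-beta in the matrix, fell with it. The BMP antagonist Grem1 (-0.88 ± 0.09), the activin subunit Inhba (-0.82), its antagonist Fst (-0.44) and the ligand Tgfb3 (-0.44) also fell. The inhibitor of differentiation Id2 rose (0.65 ± 0.07), as did the coreceptor Tgfbr3 (0.42).

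Versican Vcan (-0.52), the collagens Col5a2 (-0.41) and Col12a1 (-0.41) and the cross-linking enzyme Lox (-0.31) were lower, and fibromodulin Fmod (1.00 ± 0.10), fibulin Fbln1 (0.89 ± 0.07) and elastin Eln (0.32) higher. The abundant fibrillar collagens did not pass, with Col1a1 at -0.03 ± 0.05 and Col3a1 at -0.02. The rises of the matrix list numbered 5 without 10 µg/ml replicate 3. Its falls numbered 5 without 10 µg/ml replicate 3 or 50 µg/ml replicate 3 and 6 without 50 µg/ml replicate 2, while the TGF-beta count stayed at 9 or 10 when any single array was left out.

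Of 25 matrix proteases and inhibitors 7 rose and 3 fell (median 0.0913), where all genes gave 7.75% higher and 6.85% lower. The membrane type protease Mmp14 read -0.01, 0.00 and 0.03 at 10 µg/ml and 0.49, 0.37 and 0.43 at 50 µg/ml (0.42 ± 0.05), and the gelatinase Mmp2, which it activates, rose by 0.32 ± 0.04. Beside A2m, the falls were urokinase Plau (-0.99 ± 0.09) and the macrophage elastase Mmp12 (-0.28). The inhibitor Timp1 differed by -0.04 ± 0.07.

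Among 15 retinoid genes 3 rose and 2 fell (median 0.0843, and 0.137 without 10 µg/ml replicate 2). Over all genes 7.75% were higher and 6.85% lower. Dhrs3, which reduces retinaldehyde back to retinol, read 0.01, 0.00 and 0.00 at 10 µg/ml and 0.85, 0.85 and 0.82 at 50 µg/ml (0.84 ± 0.04, limma adjusted p 1.73e-07). Aldh1a1 fell, as did the retinoic acid hydroxylase Cyp26b1 (-0.46), while Rdh10 (0.28) and transglutaminase Tgm2 (0.78 ± 0.08) rose. In both Dhrs3 and Aldh1a1 the cultures of a dose lay close together, which their choice by smallest p in the list favours. The risers of the list numbered 5 without 50 µg/ml replicate 2.

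Of 27 sarcomere genes 6 rose and 2 fell, where all genes gave 7.75% higher and 6.85% lower. The list median was 0.0396, against 0.0197 over all genes. The atrial light chain Myl7 read -0.01, 0.26 and 0.32 at 10 µg/ml and 1.29, 1.15 and 1.26 at 50 µg/ml (1.05 ± 0.10) and was the 1 sarcomere gene that changed at least 2-fold. The heavy chain Myh6 rose by 0.43 ± 0.08 while Myh7 differed by 0.02 ± 0.08. Actc1 (0.01), Tnnt2 (0.03) and Ttn (0.20) did not pass. Myl2 (0.21), Acta1 (0.49) and Lmod2 (0.27) passed with all arrays and not without 10 µg/ml replicate 2, when the counts were 3 higher and 3 lower. Leaving out any other single array of the 2 doses but 50 µg/ml replicate 2 also gave 2 or 3 risers, and the falls numbered 0 or 1 without any array of the 2 doses other than 10 µg/ml replicate 2.

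Calcium cycling genes gave 3 rises and 1 fall among 21 (median 0.102, and 0.0604 without 10 µg/ml replicate 2). Over all genes 7.75% were higher and 6.85% lower, shares that also stand beside the ion channel list. Sarcolipin Sln (0.43 ± 0.08), the channel subunit Cacnb2 (0.30 ± 0.06) and the sensor Stim1 (0.22) rose, and the plasma membrane pump Atp2b4 fell (-0.66 ± 0.06). Without 10 µg/ml replicate 2 the falls numbered 4, with phospholamban Pln (-0.14) among them, and without 50 µg/ml replicate 3 they numbered 2. The sarcoplasmic pump Atp2a2 (0.15 ± 0.05), the release channel Ryr2 (0.11 ± 0.08) and the exchanger Slc8a1 (0.17 ± 0.07) did not pass. Of 22 ion channel genes 6 rose and 1 fell (median 0.0888, and 0.146 without 10 µg/ml replicate 2). The risers included Hcn4 (0.51 ± 0.09), the T-type channels Cacna1g (0.35) and Cacna1h (0.27) and the acetylcholine-gated channel gene Kcnj3 (0.58 ± 0.07). Its partner Kcnj5 was the 1 that fell (-0.30), a call lost without 10 µg/ml replicate 1 or 50 µg/ml replicate 2.

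At the intercalated disc, plakoglobin Jup (0.35 ± 0.05) and the vascular connexin Gja4 (0.32 ± 0.06) rose, and vinculin Vcl (-0.29) and connexin gene Gja5 (-0.51 ± 0.09) fell, among 16 genes. The main ventricular connexin Gja1 read 0.00, -0.28 and 0.05 against 0.24, -0.05 and 0.20, overlapping between doses (0.21 ± 0.13). Hypertrophy genes gave 5 rises and 2 falls among 24. For both lists the shares of all genes were 7.75% higher and 6.85% lower. Endothelin Edn1 fell (-0.53 ± 0.10), as did the atrial natriuretic peptide Nppa (-0.24 ± 0.05), which read 0.09, 0.02 and 0.04 against -0.23, -0.19 and -0.15. Nppb differed by -0.27 ± 0.09 and did not pass. The angiotensin receptor Agtr1a (0.56 ± 0.08) and the serum response factor Srf (0.38 ± 0.05) rose. The risers numbered 3 without 10 µg/ml replicate 2 and 2 without 50 µg/ml replicate 1 or 3, and the median of -0.0376 changed sign in 2 settings.

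Markers of the other cells in the monolayer moved in different directions, where all genes gave 7.75% higher and 6.85% lower. Of 14 endothelial markers 6 rose and 1 fell (median 0.232): Emcn (0.64 ± 0.12), VE-cadherin Cdh5 (0.60 ± 0.12), Esam (0.38), Cldn5 (0.34), Sox17 (0.31) and Sox18 (0.31) rose and the VEGF receptor Flt1 fell (-0.32), with 2 falls without 10 µg/ml replicate 3. Cdh5 read 0.03, 0.18 and -0.32 at 10 µg/ml and 0.42, 0.66 and 0.62 at 50 µg/ml. The endothelial list medians at the lower dose were -0.028, 0.18 and -0.162, with replicate 2 near the values of 50 µg/ml (0.18 to 0.26). Without that culture 9 members rose and the median was 0.297. Vcam1, Icam1 and Lipg are also made by endothelium, and how far these markers account for them was not tested.

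Of 12 epicardial and mesothelial markers 3 rose and none fell (median 0.193), namely Upk1b (0.80 ± 0.12), Gpm6a (0.80 ± 0.13) and Tcf21 (0.22, not passing without 10 µg/ml replicate 2). Among 20 fibroblast markers 3 rose and 5 fell (median -0.0585, and -0.0262 without 10 µg/ml replicate 2), from Fbln1 (0.89) to the microfibril protein Mfap5 (-0.97 ± 0.06) and Thy1 (-0.61 ± 0.08). Of 13 smooth muscle and pericyte markers 3 rose and 5 fell: the channel pair Abcc9 (0.97 ± 0.07) and Kcnj8 (0.85 ± 0.10), which form the vascular potassium channel sensitive to ATP, rose together, while Rgs5 (-0.75), Cspg4 (-0.49), Cnn1 (-0.45), Smtn (-0.28) and Tagln (-0.27) fell. The 2 probe sets of Abcc9 gave 1.02 and 0.929. The falls of the fibroblast list numbered 2 or 3 without 10 µg/ml replicate 3 or any 50 µg/ml culture, and its rises 5 without 10 µg/ml replicate 3. Of 12 neuronal and glial markers 1 rose, Tubb3 (0.33 ± 0.06), a share near the 7.75% of all genes, and none of 8 erythroid markers passed. Among 34 kinesins and tubulins 5 rose and 3 fell, where all genes gave 7.75% higher and 6.85% lower. Kif1a (0.58 ± 0.06) was highest, and the falls were down to 1 without 10 µg/ml replicate 3 or 50 µg/ml replicate 2 or 3.

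Cell cycle genes were slightly lower at 50 µg/ml. Of 51 measured, 11 fell and 1 rose, 44 had a negative difference, and the median was -0.129. The falls were small: cyclin Ccnf (-0.48 ± 0.07), the licensing factor Cdt1 (-0.35 ± 0.06), Cdc20 (-0.34), the mitotic kinase Plk1 (-0.33 ± 0.05), Rrm2 (-0.33) and Cdk1 (-0.26). Plk1 read -0.01, -0.08 and -0.10 at 10 µg/ml and -0.44, -0.42 and -0.33 at 50 µg/ml. The list is sensitive to single cultures, with 16 falls and a median of -0.161 without 10 µg/ml replicate 2, 7 falls without 10 µg/ml replicate 3 or 50 µg/ml replicate 2, and 4 after a further quantile normalization. Macrophage markers fell in the same cultures, and their part in this list was not tested.

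Of 17 p53 target genes 3 rose and 2 fell (median 0.0574, and 0.00563 without 10 µg/ml replicate 2). Over all genes 7.75% were higher and 6.85% lower. Gadd45a rose (0.50 ± 0.08) and Gadd45b fell (-0.33 ± 0.06), while the arrest gene Cdkn1a (0.04) and Mdm2 (0.06) did not pass.

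Some of the genes that separate 50 from 10 µg/ml also separate 10 from 1 µg/ml, a comparison that shares the 10 µg/ml arrays and in which 2001 genes (14%) passed, 683 (4.77%) higher and 1318 (9.2%) lower at 10 µg/ml. Ddit4, an inhibitor of mTORC1 induced by stress and low oxygen, read -0.49, -0.64 and -0.58 at 1 µg/ml, 0.50, 0.83 and 0.58 at 10 µg/ml and -0.44, -0.58 and -0.51 at 50 µg/ml. Its difference was 1.21 between 10 and 1 µg/ml and -1.15 ± 0.11 between 50 and 10 µg/ml, and 0.06 between 50 and 1 µg/ml, which did not pass in a comparison where 24.9% of genes did (11.5% higher, 13.4% lower). The middle dose was thus the highest of the DEHP doses, and it was near vehicle (difference 0.03).

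Vof16 had the same order, with -0.67, -0.72 and -0.83 at 1 µg/ml and a difference of 1.90 between 10 and 1 µg/ml. Pfkfb3, which drives glycolytic flux, differed by 0.70 between 10 and 1 µg/ml and by -0.82 between 50 and 10 µg/ml. G0s2 gave 1.05 and -0.76, Ddit3 0.68 and -0.69, and Clec2g 0.98 and -1.55. For Vof16, Pfkfb3, G0s2, Ddit3 and Clec2g the 10 minus vehicle differences were 0.19, 0.03, 0.13, -0.05 and 0.06, and none passed. The 10 µg/ml cultures of these genes were thus near vehicle, with those at 1 and 50 µg/ml lower. In Egr1 and Plk2 the middle dose was the lowest of the DEHP doses, with differences of -0.95 and -0.83 between 10 and 1 µg/ml. It was near vehicle, with 10 minus vehicle differences of 0.11 and -0.09 that did not pass. The 1 µg/ml arrays of both genes lay above vehicle, which read -0.65, -0.68 and -0.55 in Egr1 and -0.41, -0.36 and -0.41 in Plk2. All 8 genes passed between 10 and 1 µg/ml and between 50 and 10 µg/ml. Aldh1a1 and Scg2 instead stepped down from 1 to 10 and from 10 to 50 µg/ml. Aldh1a1 read 0.59, 0.67 and 0.63 at 1 µg/ml, and its 10 minus 1 difference was -0.74. Scg2 read 0.94, 0.96 and 0.99 there and differed by -1.21. Both were also higher at 1 µg/ml than in vehicle, where Aldh1a1 read 0.14, 0.06 and 0.10 and Scg2 0.11, 0.39 and 0.50. Their 10 minus vehicle differences of -0.21 and -0.58 did not pass. These 10 genes were picked out after their values at 1 µg/ml had been seen. Of the 14 largest rises 6 passed between 10 and 1 µg/ml, and of the 14 largest falls 6.

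Setting 50 against 10 µg/ml rather than against vehicle changes a gene's difference by exactly the 10 minus vehicle difference. No gene passed for 10 µg/ml against vehicle in limma. An unadjusted limma p under 0.05 was found in 899 of 14324 genes, a level that a share of 0.05 would reach with no difference. With array weights 90 passed the adjusted threshold, and after a further quantile normalization 15 did. For the 14 largest rises the 10 minus vehicle differences ran from -0.32 to 0.27 and for the 14 largest falls from -0.58 to 0.19. Scg2 had the lowest of them: it read 0.11, 0.39 and 0.50 in vehicle and -0.11, -0.43 and -0.19 at 10 µg/ml.

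The 4 genes past the threshold whose 10 minus vehicle difference was greatest with the sign opposite to their 50 minus 10 difference were Enpp2, Srsf3, Xirp2 and Cep295nl. Enpp2, which encodes autotaxin, read 0.06, 0.00 and 0.03 in vehicle, -0.29, -0.27 and -0.39 at 10 µg/ml and 0.20, 0.00 and 0.30 at 50 µg/ml. The splicing factor Srsf3 read -0.40, -0.31 and -0.27 at 10 µg/ml and -0.07, -0.02 and 0.02 at 50 µg/ml. Xirp2, an actin-binding protein of the intercalated disc, read 0.34, 0.05 and 0.15 against -0.11, -0.42 and -0.25. For these 3 genes 50 µg/ml and vehicle differed by 0.14, -0.06 and 0.02, none of which passed in a comparison where 17.6% of genes did (8.75% higher, 8.84% lower). Cep295nl differed by -0.94 ± 0.12 from 10 µg/ml and by -0.57 from vehicle. They were chosen for this order, which is therefore a description, and their 10 minus vehicle differences did not pass (the lowest limma adjusted p was 0.424).

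**Figure D5:**
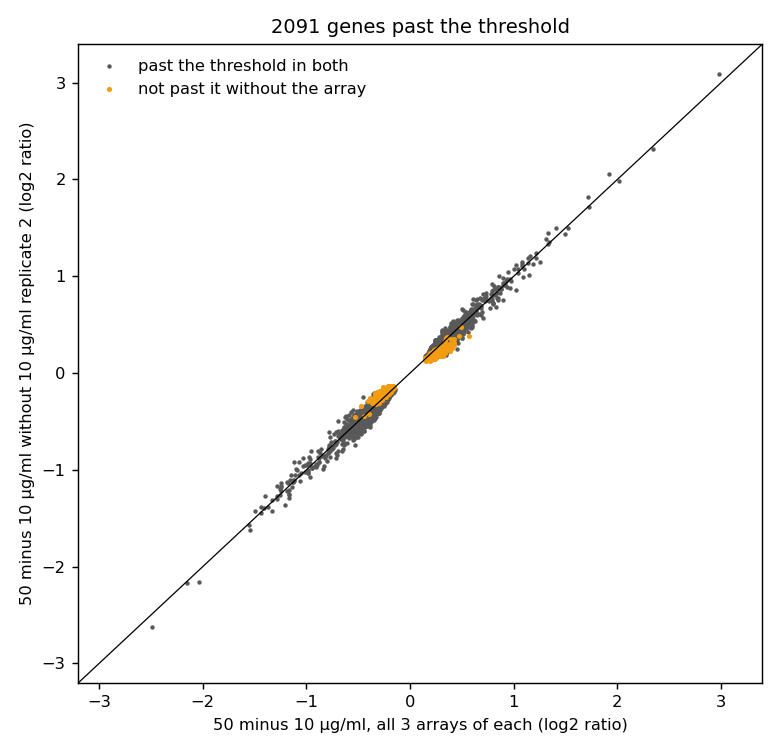
Each point is 1 of the 2091 genes past the threshold between 50 and 10 µg/ml, with its log2 difference from all arrays (horizontal) and without 10 µg/ml replicate 2 (vertical); the line marks equal values. Grey points (1821 genes) passed both ways and orange points only with all arrays; the orange points sit at small differences.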

How the data were processed

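Expression was measured on 12 Affymetrix arrays, 3 for each of 4 groups. Per the submitters' processing notes, RMA summarised them (version not given in the sources used here). What was deposited is a table of linear ratios (0.165 to 12.2) in which each probe set's 12 arrays have their midpoint at a log2 of 0, within 1e-06 by a centring that no source used here describes. Arrays give no read depth, so 3 arrays per group limit the precision. Scan dates and slides were not analysed here.

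From the log2 of the ratios, probe sets with exactly 1 gene symbol (15097 of 27342; 323 had several and 11922 none) were averaged per gene, giving 14324 genes; 499 genes had several probe sets. All 12 arrays entered one limma model (limma 3.58.1 in R 4.3.3) of 4 group means with 8 residual degrees of freedom, lmFit and eBayes, with Benjamini-Hochberg adjustment over all genes and a threshold of 0.05. The code was first tested on simulated data.

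The comparison and its 40 gene lists (923 of 1063 entries measured, 867 different genes) were chosen with earlier results of these data known. Genes named were the 14 largest rises and 14 largest falls with doses not overlapping, the 3 smallest p of each list, a panel of 19 genes, Mt1, Mt2A and 4 genes opposite to vehicle; other members named in the text were chosen after their values were seen. Lists were described by counts and medians, with no set test. Alternatives were a further quantile normalization, centring, a trended or robust prior, array weights, only the 2 groups, the replicate number as a block, probe sets taken singly and each array left out. Promoter sequences came from RefSeq (GRCr8) for 4 of 5 genes looked up.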

Additional observations from a re-analysis of the deposited data

Results flagged for a closer look

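Probe sets without a gene symbol were outside the comparisons above, and 918 of 11922 (7.7%) passed the threshold between 50 and 10 µg/ml in limma, 323 higher and 595 lower, against 0 between 10 µg/ml and vehicle. Their differences ran from -1.92 to 1.21 on the log2 scale. Among probe sets with 1 symbol 1954 of 15097 (12.9%) passed, and among those with several symbols 16 of 323 (4.95%). They are flagged as signal in data that carries no gene name here; which transcripts they represent was not analysed here. With 3 arrays per group no group was large enough for a test of single outlying arrays.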

How the results depend on the processing

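Between 50 and 10 µg/ml the count of 2091 genes became 3457 with array weights, which gave 10 µg/ml replicate 2 a weight of 0.271 and replicate 1 of that dose 3.77, and 1312 with only the 2 groups in the fit, which leaves fewer residual degrees of freedom. The 1110 genes higher became 2053 with array weights, 714 after a further quantile normalization and 664 with only the 2 groups. The 981 genes lower became 648 with only the 2 groups. Taken singly, 1525 probe sets were lower, a count over all 27342 probe sets and not over genes. Of these, 918 had 1 symbol, 12 had several and 595 had none. Leaving out single arrays gave 1534 to 2531 changed, 774 to 1303 higher and 739 to 1228 lower. For 10 µg/ml against vehicle the count of 0 became 15 after a further quantile normalization, 90 with array weights and 0 to 1 when single arrays were left out. For 10 against 1 µg/ml the 2001 became 3155 with array weights, 697 with only the 2 groups and 820 to 2694 when single arrays were left out (820 without 1 µg/ml replicate 3, 880 without 10 µg/ml replicate 2 and 944 without 1 µg/ml replicate 1). Apart from the effects of construction named, the cause was not tested.

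Same-numbered arrays of the 2 doses had deviations from their group means that correlated at 0.16, 0.43 and -0.02. For replicates 1 and 2 at 10 µg/ml this was the highest value with any 50 µg/ml array, while replicate 3 reached 0.49 with another number. Over all genes the log2 ratios of replicate 2 at the 2 doses correlated at 0.31. The numbers were not taken as pairs in the main fit, and whether they mark a shared factor was not tested. With the replicate block 2093 genes passed, 1091 higher and 1002 lower. Of 151 genes named by the rule 123 passed; 106 of these kept their call in all 20 alternatives, 0 turned direction, and the further quantile normalization lost most, 15. Array data without background values give no limit from depth.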
